A study of Drosophila melanogaster with 12 samples.

Results

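Satellite DNA consists of short units repeated head to tail in long arrays, most of them in the pericentromeric heterochromatin, where histone H3 is largely unacetylated and methylated at lysine 9. Reads of such arrays were counted in the transposon tables of a ChIP-seq study of Drosophila melanogaster ovaries, and the rows whose name carries Satellite in its class field are described here. There were 5 such rows among 215 elements, namely SAR_DM, DMSAT6, RSP, HETRP_DM and HSATII, and all 5 passed the requirement of a mean of at least 10 counts over 8 libraries, as did 203 of the 215 elements. SAR_DM is the Repbase name of a complex satellite of the X heterochromatin that is related to scaffold-associated regions. RSP is the Responder satellite of the second chromosome, the target of the meiotic drive system Segregation Distorter. HSATII carries the name of a human pericentromeric satellite, and its origin in the fly genome is not given in the sources used here.

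The series compared ovaries in which enok was knocked down (enok_KD) with control ovaries in which GFP was targeted (GFP_KD). Enok is the acetyltransferase that places most of the acetyl mark on lysine 23 of histone H3 (H3K23ac), a mark of active chromatin. Females of enok_KD carried the hairpin transgene P{TRiP.HMS02634}attP2 and those of GFP_KD carried P{VALIUM20-EGFP.shRNA.1}attP2. Both genotypes shared tj-GAL4/+, which drives expression in the somatic cells of the ovary, and a GAL4::VP16-nos.UTR insertion, which drives it in the germline. RNAi was carried out at 29 °C for 2 to 3 days, and ovaries of adult females aged 2 to 3 days were pooled. The tables hold 2 libraries each of enok_KD H3, GFP_KD H3, enok_KD H3K23ac and GFP_KD H3K23ac, whereas the 4 input libraries were not analysed here. The authors counted uniquely mapped reads without mismatches, so each row stands for the copies of a satellite that differ enough from one another to be told apart. Whole ovaries were used and input was left out, so more H3 on a satellite, more copies of it and a different mix of cells cannot be told apart here.

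Total counts over the transposon table were 411139 to 628808 for H3 and 199303 to 370429 for H3K23ac. Replicates of enok_KD differed more than those of GFP_KD. The median absolute log2 difference between replicates over 203 elements was 0.30 for H3 and 0.35 for H3K23ac in enok_KD, as compared with 0.093 and 0.084 in GFP_KD. An exact two-sided test of a single value with 2 libraries per group cannot go below p = 0.333, so every p-value rests on spread shared across elements.

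The satellites took a larger part of H3 reads in enok_KD than in GFP_KD. They made up 9.94% and 11.9% of the transposon reads in the enok_KD H3 libraries, against 7.45% and 7.17% in the GFP_KD H3 libraries (10.9% ± 1.39 and 7.31% ± 0.197, mean ± SD, n = 2 each). Both enok_KD libraries therefore lay above both GFP_KD libraries. In H3K23ac the satellites took 3.13% and 4.49% in enok_KD, against 4.67% and 4.91% in GFP_KD (3.81% ± 0.958 and 4.79% ± 0.167, n = 2 each). Both enok_KD libraries lay below the GFP_KD libraries here, the second of them by less than the gap between the enok_KD replicates. The 95% Wilson intervals, which cover counting error only, ran from 3.06% to 3.21% and from 4.41% to 4.56% for the enok_KD H3K23ac libraries, so these replicates differed by more than counting error.

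**Figure D1:**
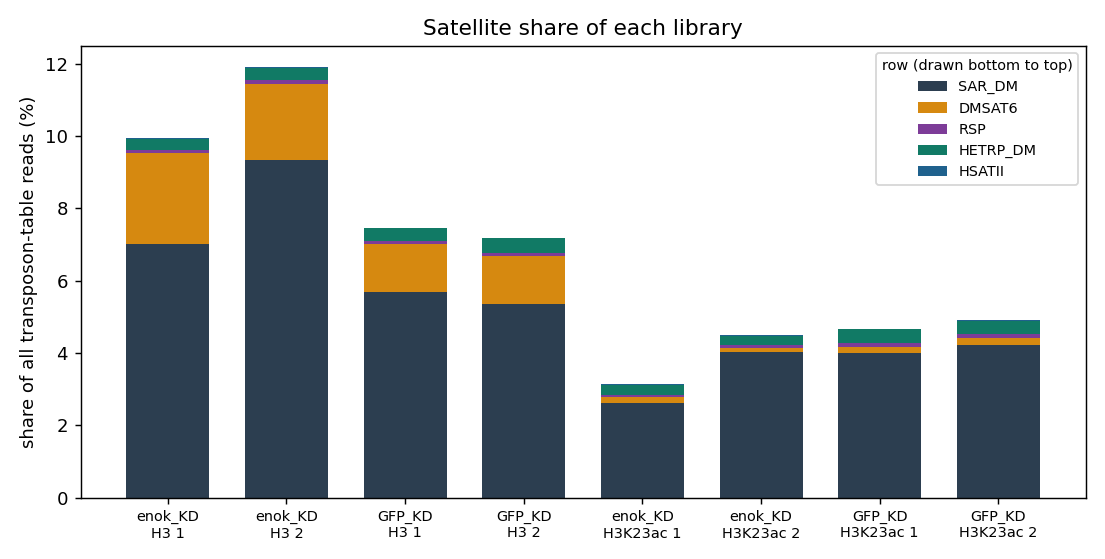
Stacked bars give the percent of all transposon-table reads that fell on each satellite row in each of the 8 libraries. SAR_DM fills most of every bar, and the total reaches 9.94% and 11.9% in enok_KD H3 as compared with 7.45% and 7.17% in GFP_KD H3.

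A single row dominated this pool. SAR_DM held 74.6% ± 5.44 of satellite reads in enok_KD H3 and 75.4% ± 1.22 in GFP_KD H3, and 86.5% ± 4.56 in enok_KD H3K23ac and 85.8% ± 0.616 in GFP_KD H3K23ac (SD, n = 2 each). It ranked between place 1 and place 7 of the 215 elements by count in the 8 libraries. DMSAT6 was the second row in H3, with 21.5% ± 5.40 of satellite reads in enok_KD and 18.2% ± 0.644 in GFP_KD, but its part was only 4.22% ± 2.12 in enok_KD and 3.83% ± 0.258 in GFP_KD in H3K23ac. HSATII was the rarest row, with 0.0366% of satellite reads in enok_KD H3 and 0.0382% in GFP_KD H3.

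To compare libraries, counts were scaled with TMM factors and expressed per 1000000 transposon reads. A value is thus relative to the typical element, and a shift common to the whole table leaves no trace in it. SAR_DM had 31342 and 38372 reads in the enok_KD H3 libraries, against 31015 and 33634 in the larger GFP_KD H3 libraries. Scaled for depth these were 76741 and 94915 in enok_KD and 52322 and 48417 in GFP_KD, and the groups did not overlap. In H3K23ac, SAR_DM had 5202 and 11764 reads in enok_KD and 14783 and 12568 in GFP_KD, or normalised counts of 28903 and 42290 in enok_KD and 38210 and 41169 in GFP_KD. The H3K23ac values of enok_KD thus lay on both sides of those of GFP_KD.

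DMSAT6 had 11201 and 8629 H3 reads in enok_KD, against 7216 and 8417 in GFP_KD. Its normalised H3 counts were 27426 and 21344 in enok_KD and 12173 and 12116 in GFP_KD, so that both enok_KD libraries were well above the GFP_KD pair. DMSAT6 had only 357 H3K23ac reads in each enok_KD library, against 694 and 531 in GFP_KD. The normalised H3K23ac counts were 1984 and 1283 in enok_KD and 1794 and 1739 in GFP_KD, with the GFP_KD values between those of enok_KD.

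RSP had 351 and 516 H3 reads in enok_KD, against 481 and 455 in GFP_KD, and 79 and 199 H3K23ac reads in enok_KD, against 386 and 317 in GFP_KD. Its normalised H3 counts were 859 and 1276 in enok_KD and 811 and 655 in GFP_KD. The normalised H3K23ac counts were 439 and 715 in enok_KD and 998 and 1038 in GFP_KD. RSP was the only satellite whose enok_KD libraries lay apart from the GFP_KD libraries for both antibodies, above them in H3 and below them in H3K23ac. Of the 203 elements tested, 37.4% lay above in H3 and 13.8% below in H3K23ac. The share of elements that did both was not counted.

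HETRP_DM had 1403 and 1398 H3 reads in enok_KD, against 1937 and 2588 in GFP_KD, and normalised H3 counts of 3435 and 3458 in enok_KD, between the 3268 and 3725 of GFP_KD. Its H3K23ac reads numbered 586 and 764 in enok_KD, against 1415 and 1119 in GFP_KD, and the normalised counts of 3256 and 2746 in enok_KD lay below the 3657 and 3666 of GFP_KD. HSATII had 17 reads in each enok_KD H3 library, against 13 and 20 in GFP_KD, and 22 and 26 H3K23ac reads in enok_KD, against 30 and 31 in GFP_KD. Its normalised H3 counts were 41.6 and 42.1 in enok_KD and 21.9 and 28.8 in GFP_KD, and its normalised H3K23ac counts of 122 and 93.5 in enok_KD overlapped the 77.5 and 102 of GFP_KD. At such counts only large differences could be seen.

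**Figure D2:**
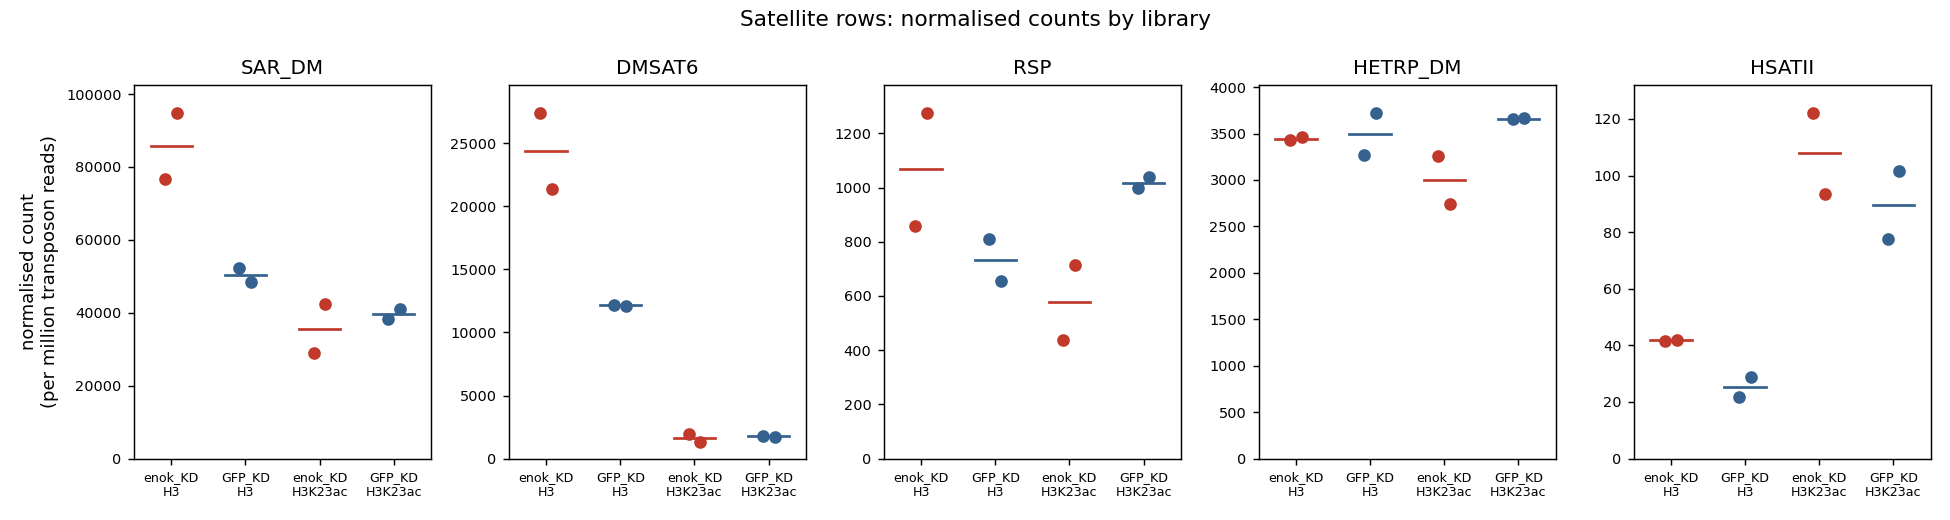
Each panel gives the normalised count (per 1000000 transposon reads, TMM scaled, linear axis from 0) of a satellite row in the 8 libraries, with a point per library and a line at the mean of 2. H3 of SAR_DM, DMSAT6, RSP and HSATII is higher in both enok_KD libraries than in both GFP_KD libraries, whereas that of HETRP_DM is not.

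The enok_KD replicates did not differ in the same direction at every satellite. SAR_DM and RSP were higher in replicate 2 for both antibodies, by 1.24-fold and 1.49-fold in H3 and by 1.46-fold and 1.63-fold in H3K23ac. DMSAT6 was higher in replicate 1 for both, by 1.28-fold in H3 and 1.55-fold in H3K23ac. In GFP_KD the replicates of these 3 rows differed by at most 1.24-fold, at RSP in H3.

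The ratio of H3K23ac to H3 was then compared among the satellites within each knockdown. In enok_KD, 1 of the 5 rows was higher and 3 were lower than the typical element (edgeR adjusted p under 0.05), where 32.0% of the 203 elements were higher and 28.1% lower. In GFP_KD, 1 row was higher and 1 was lower, where 36.0% of the elements were higher and 32.5% lower. DMSAT6 had the lowest ratio of all 203 elements in both, with fitted log2 ratios of −3.91 ± 0.23 in enok_KD and −2.78 ± 0.22 in GFP_KD (SE; edgeR adjusted p = 1.14e-05 and 9.40e-05). HSATII stood at the opposite end, with 1.33 ± 0.27 in enok_KD and 1.78 ± 0.26 in GFP_KD (edgeR adjusted p = 0.00265 and 0.000334), at place 19 and place 4 from the highest. Linear ratios over the 5 rows lay between 0.0666 and 2.51 in enok_KD and between 0.146 and 3.43 in GFP_KD.

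SAR_DM and RSP were below the typical element in enok_KD, at −1.27 ± 0.20 and −0.86 ± 0.26 (edgeR adjusted p = 0.000594 and 0.0182), but not past the threshold in GFP_KD, at −0.34 ± 0.19 and 0.47 ± 0.25 (edgeR adjusted p = 0.139 and 0.111). The difference between the knockdowns was tested on its own and did not pass at either row (edgeR adjusted p = 0.196 and 0.129). HETRP_DM was near the typical element, at −0.20 ± 0.14 in enok_KD and 0.066 ± 0.14 in GFP_KD (edgeR adjusted p = 0.243 and 0.671). The zero of this scale is set by the transposon table. With factors taken from the piRNA cluster table the median of all elements moved by 0.76 in enok_KD and 0.79 in GFP_KD. SAR_DM and RSP were then at −0.49 and −0.088 in enok_KD (edgeR adjusted p = 0.0722 and 0.800). They stayed below the median of all elements, which was then 0.80, and these p-values no longer test against the typical element. Without the enok_KD H3K23ac replicate 1 library RSP was at −0.58 in enok_KD (edgeR adjusted p = 0.0669).

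The main comparison asked whether H3K23ac per H3 differed between enok_KD and GFP_KD at the satellites. All 5 rows had a lower ratio in both enok_KD replicates than in both GFP_KD replicates, where 28.6% of the 203 elements were lower in this way and 66.5% did not overlap in either direction. None of them passed the edgeR test (0 of 5 at an adjusted p under 0.05, where 0% of the elements were lower), while 3 of the 5 had an unadjusted p under 0.05, where 14.3% of the elements did. DESeq2 called 2 of the 5, DMSAT6 and RSP (DESeq2 adjusted p = 0.0252 and 0.0275), where it called 5 elements over all classes. The voom fit called 0. The median fitted log2 difference was −0.93 over the 5 rows, 0.052 over all elements tested and 0.060 over the 198 elements of other classes.

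RSP had the lowest fitted difference of the satellites with all libraries kept, whereas without the enok_KD H3 replicate 2 library it was at −1.05 and DMSAT6 at −1.29. Its log2 ratios were −0.96 and −0.83 in enok_KD and 0.30 and 0.67 in GFP_KD (−0.90 ± 0.091 and 0.48 ± 0.26, SD, n = 2 each), and the fit gave −1.34 ± 0.36 (SE; 95% interval −2.15 to −0.52; edgeR adjusted p = 0.129), the second lowest value of 203 elements. DMSAT6 had log2 ratios of −3.79 and −4.05 in enok_KD and −2.76 and −2.80 in GFP_KD, and a fitted difference of −1.13 ± 0.29 (95% interval −1.80 to −0.46; edgeR adjusted p = 0.129), the fourth lowest. SAR_DM had log2 ratios of −1.41 and −1.17 in enok_KD and −0.45 and −0.23 in GFP_KD, and a fitted difference of −0.93 ± 0.27 (95% interval −1.55 to −0.30; edgeR adjusted p = 0.196), the seventh lowest. In linear terms the fitted ratio in enok_KD was 0.396 of that in GFP_KD at RSP, 0.458 at DMSAT6 and 0.526 at SAR_DM.

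HSATII had log2 ratios of 1.54 and 1.14 in enok_KD and 1.79 and 1.81 in GFP_KD, with a fitted difference of −0.45 ± 0.38 (95% interval −1.31 to 0.40; edgeR adjusted p = 0.596). HETRP_DM had −0.077 and −0.33 in enok_KD and 0.16 and −0.023 in GFP_KD, with a fitted difference of −0.27 ± 0.19 (95% interval −0.71 to 0.17; edgeR adjusted p = 0.504). Neither value was stable to the libraries used. Without the GFP_KD H3 replicate 1 library they were −0.24 at HSATII and −0.14 at HETRP_DM, and without the enok_KD H3K23ac replicate 2 library −0.24 and −0.15. Over all fits with libraries left out they ranged from −0.67 to −0.16 at HSATII and from −0.40 to −0.072 at HETRP_DM. The ratios divide libraries of the same number, a pairing that the labels do not state. With the numbers crossed within each knockdown, 4 of the 5 rows remained lower in both enok_KD ratios, where 14.8% of the elements were, and HSATII overlapped.

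**Figure D3:**
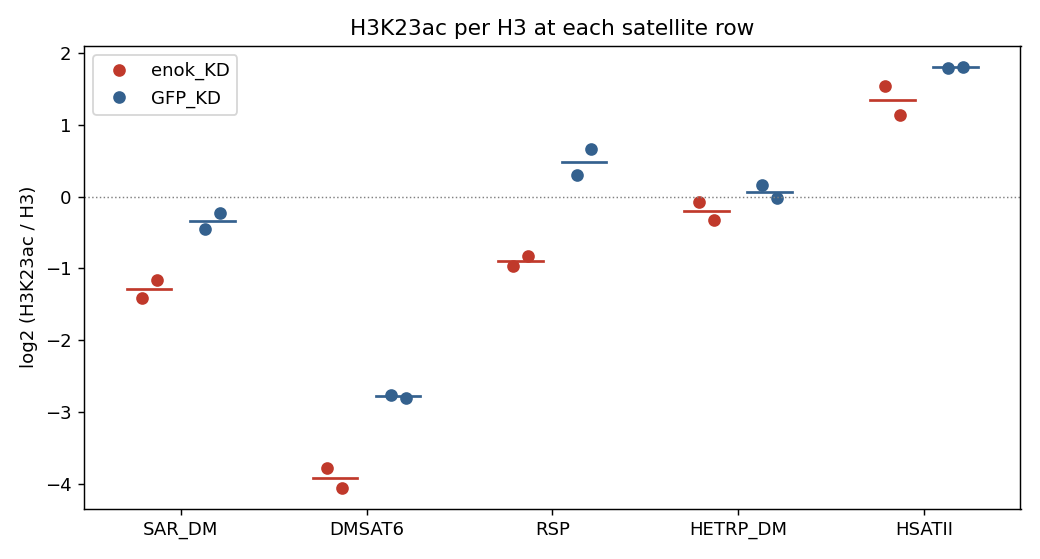
Log2 ratio of H3K23ac to H3 (normalised counts, offset of 0.5 counts) for each satellite row, with a point per replicate number and a line at the mean of 2. The dotted line marks equal normalised counts of both antibodies, and at every row both enok_KD points lie below both GFP_KD points.

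All 5 fitted differences were negative under every alternative for which they were computed. Whether DMSAT6, RSP and SAR_DM passed depended on the libraries used, and at DMSAT6 and RSP also on the tool. HETRP_DM and HSATII passed under no alternative. Without the enok_KD H3K23ac replicate 2 library 3 rows passed, with −1.76 at RSP, −1.23 at SAR_DM and −0.84 at DMSAT6 (edgeR adjusted p = 0.0217, 0.0217 and 0.0452), and 22 of 203 elements passed. Without the enok_KD H3K23ac replicate 1 library DMSAT6 was at −1.47 and SAR_DM at −0.68. The same 3 rows passed when both antibodies of enok_KD replicate 1 or of enok_KD replicate 2 were left out, which also raised the number of elements called to 38 and 78. In those fits enok_KD has a single library per antibody, and the spread comes from the closely matched GFP_KD replicates alone.

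The difference in ratio was divided into the part that comes from H3 and the part that comes from H3K23ac. With all libraries kept, most of it came from H3 at DMSAT6 and SAR_DM, both antibodies contributed at RSP, and most came from H3K23ac at HETRP_DM. The part from H3 was 89.2% of the summed absolute log2 values at DMSAT6, 83.1% at SAR_DM, 73.6% at HSATII, 40.6% at RSP and 6.76% at HETRP_DM. Both parts were toward a lower ratio at DMSAT6, SAR_DM and RSP, whereas at HSATII the fitted values of both antibodies were positive and that of H3 was larger. The parts shared a direction, toward a lower or a higher ratio, at 42.9% of the 198 other elements. Over the 198 other elements the median part from H3 was 57.6%. The part from H3 at RSP rested on the enok_KD replicates, since its fitted H3 change was 0.15 without the enok_KD H3 replicate 2 library and 0.80 without the enok_KD H3 replicate 1 library. At SAR_DM, fits with libraries left out gave 0.53 to 0.91 for H3 and −0.47 to 0.092 for H3K23ac. At DMSAT6 they gave 0.81 to 1.09 for H3 and −0.46 to 0.17 for H3K23ac, so the direction of its H3K23ac part was not stable. The split also moved with the scaling. Other scalings gave 0.57 to 0.72 and −0.31 to −0.20 at SAR_DM, and 0.35 to 0.50 and −0.95 to −0.84 at RSP, for H3 and H3K23ac.

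For H3 alone, 1 of the 5 satellites passed, where 2.46% of the 203 elements were higher past the threshold. This was DMSAT6, with a fitted log2 change of 1.01 ± 0.20 (SE; 95% interval 0.54 to 1.47; edgeR adjusted p = 0.0354), that is, 2.01-fold more H3 in enok_KD. SAR_DM had 0.77 ± 0.19 (edgeR adjusted p = 0.0895), HSATII 0.70 ± 0.29 (0.166), RSP 0.54 ± 0.24 (0.176) and HETRP_DM −0.021 ± 0.14 (0.927). In 4 of the 5 rows both enok_KD H3 libraries lay above both GFP_KD libraries, where 37.4% of the elements did and 66.0% did not overlap in either direction. The median was 0.70 over the 5 rows and 0.034 over all elements. The call at DMSAT6 was lost under DESeq2 size factors (0.92, edgeR adjusted p = 0.0598), with TMM factors from the other elements (0.94, 0.0730), with a minimum mean of 100 counts (0.93, 0.0675), without any one of the 4 H3 libraries or of the 2 GFP_KD H3K23ac libraries (0.81 to 1.09, 0.0727 to 0.325), and without both antibodies of GFP_KD replicate 1 or 2 (1.01 and 1.00, 0.307 and 0.494). H3 of SAR_DM passed with DESeq2 (0.68, DESeq2 adjusted p = 0.0291) and without either enok_KD H3K23ac library (0.77 in both fits, edgeR adjusted p = 0.00700 and 0.00713). H3 of HSATII was at 0.41 without the GFP_KD H3 replicate 1 library. That of RSP was at 0.15 without the enok_KD H3 replicate 2 library, and at 0.80 without both antibodies of enok_KD replicate 1.

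For H3K23ac alone, none of the satellites passed the edgeR test (0 of 5, where 0% of the elements were lower), and DESeq2 and voom also called 0 of 5. At an unadjusted p under 0.05 there was 1 of 5, where 15.8% of the elements were. This row was RSP, whose fitted log2 change of −0.79 ± 0.26 (95% interval −1.39 to −0.20; edgeR adjusted p = 0.215) was the lowest of all 203 elements. RSP was at −1.21 without the enok_KD H3K23ac replicate 2 library, but at −0.51 without the replicate 1 library. HETRP_DM had −0.29 ± 0.14 (edgeR adjusted p = 0.375), SAR_DM −0.16 ± 0.19 (0.763), DMSAT6 −0.12 ± 0.21 (0.811) and HSATII 0.25 ± 0.24 (0.699). RSP and HETRP_DM were lower in both enok_KD libraries than in both GFP_KD libraries, 2 of 5, where 13.8% of the elements were and 44.8% did not overlap in either direction. The sign at SAR_DM and DMSAT6 was set by the enok_KD replicate used, with 0.092 at SAR_DM without replicate 1 and 0.17 at DMSAT6 without replicate 2 of enok_KD H3K23ac. HETRP_DM was at −0.17 without enok_KD H3K23ac replicate 2, and HSATII ranged from 0.057 to 0.47 over the fits with libraries left out. Without both antibodies of enok_KD replicate 1, DMSAT6 was at −0.46 and HETRP_DM at −0.41. Without both of enok_KD replicate 2, RSP was at −1.23 and SAR_DM at −0.47. In these fits enok_KD has a single library per antibody, so only the sizes are given.

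**Figure D4:**
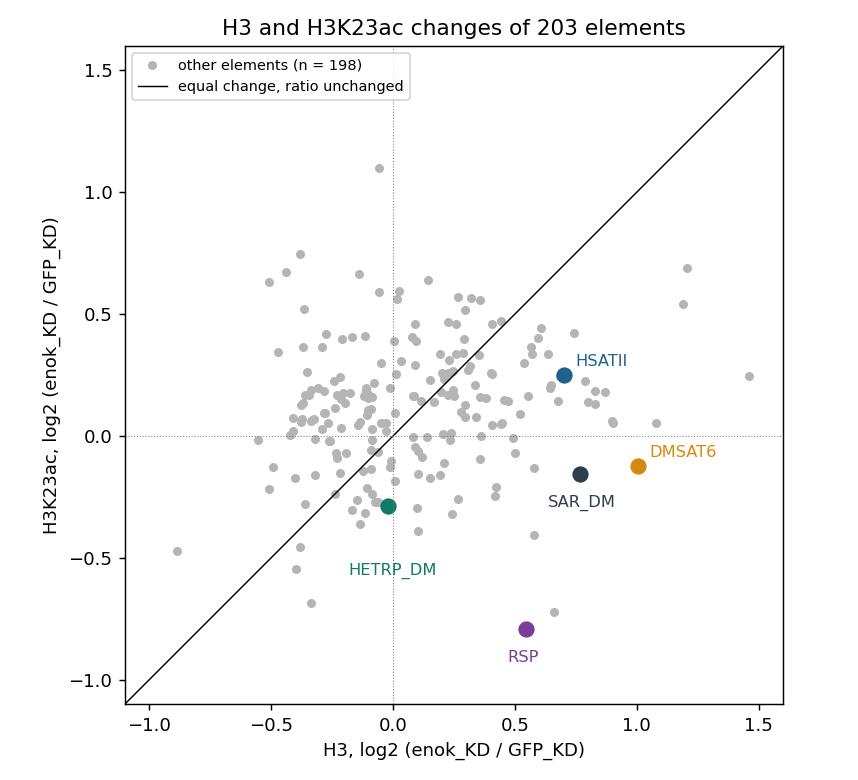
Each point is an element, with the fitted log2 change of H3 (enok_KD over GFP_KD) across and that of H3K23ac up, and satellites in colour. Points under the diagonal have a lower H3K23ac per H3 in enok_KD. All 5 satellites lie under it, DMSAT6 and SAR_DM displaced mostly to the right, RSP to the right and downward, and HETRP_DM downward.

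Other repeat classes were set beside the satellites. The median fitted log2 difference in ratio was 0.19 over 41 LINE elements, 0.081 over 118 LTR elements and 0.023 over 29 DNA transposons. Elements of class Unknown had a median of −0.44 over 9 elements, 7 of them negative. For H3 alone the Unknown class had a median of 0.66 and DNA transposons 0.27, and for H3K23ac alone the medians were −0.16 over the satellites and 0.13 over all elements. With edgeR no element of any class passed in the ratio difference, where 29 of 203 had an unadjusted p under 0.05, DESeq2 called 5 elements and voom 0.

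**Figure D5:**
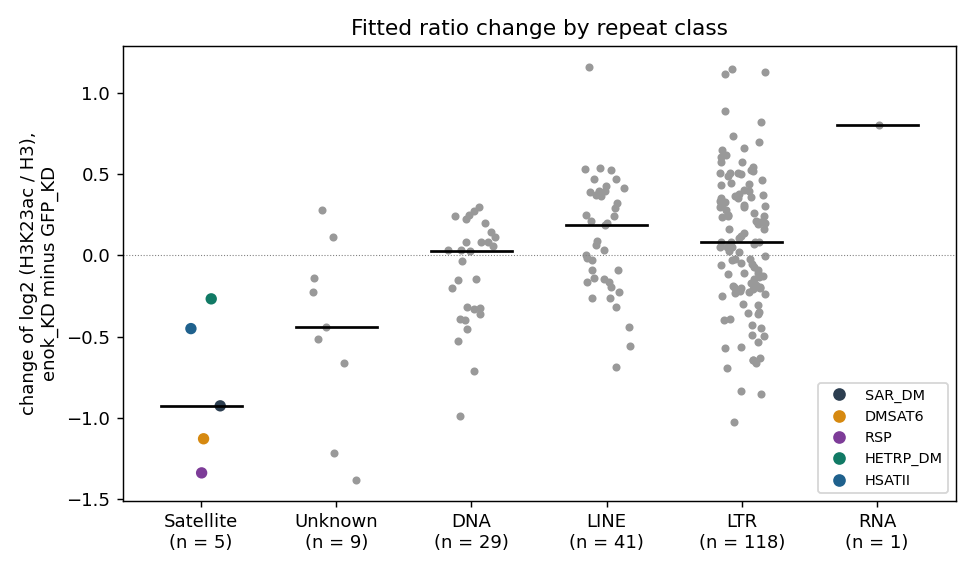
Fitted change of the log2 ratio of H3K23ac to H3 (enok_KD minus GFP_KD) for each element tested, by the class field of its name, with a line at the class median. The satellites, coloured by row, have a median of −0.93, as compared with medians between 0.023 and 0.19 for DNA transposons, LTR and LINE elements. The Unknown class (9 elements) has a median of −0.44.

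The elements most like each satellite were found by the distance between profiles of log2 normalised counts over the 8 libraries, each centred on its own mean. The ratios and their differences are made of these same values, so likeness in them follows from the choice and is no separate result. DMSAT6 was nearest to R1_DM, a retrotransposon that inserts into the ribosomal RNA genes, at a distance of 1.55, and to the LTR internal part NINJA_I at 1.69, as compared with a median of 5.05 to all other elements. The ratios of these neighbours in GFP_KD were −2.27 at R1_DM and −2.36 at NINJA_I, and their ratio differences between the knockdowns were −0.16 and 0.079. HETRP_DM was nearest to the LTR elements HMSBEAGLE_I (0.227) and MICROPIA_LTR (0.345), and SAR_DM to Invader2_I (0.748) and DOC5_DM (0.763). RSP was nearest to Invader3_LTR (0.727) and ALA_DM (0.728). The ratio difference was −0.66 at Invader3_LTR and −1.38 at ALA_DM, the lowest of all elements but from a mean count of 14.5. HSATII was nearest to the DNA transposons P_DG (0.691) and FB4_DM (0.723). No satellite had another satellite as its nearest element, and the closest pair among them was RSP and SAR_DM at 1.15. Since 198 of the 203 elements belong to other classes, this is likely for any profile and does not show that the satellites are unlike.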

How the data were processed

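Single-end reads had been mapped by the authors with Bowtie2 to UCSC dm3, where mismatches were not allowed and only unique hits were kept (study's methods). The submitters' processing notes also name Trimmomatic and bedtools, without a role. The deposited values are whole-number read counts per element, neither normalized nor pooled. The repeat annotation and the treatment of duplicates are not given in the sources used here. The cluster tables also hold the authors' DESeq2 comparison (fold changes and p-values), which was not used. No column lacked a library (0).

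Elements with a mean of at least 10 counts over the 8 libraries were fitted with edgeR 4.0.16 (R 4.3.3; TMM, 4 group means, quasi-likelihood test, Benjamini-Hochberg over 203 elements). The biological coefficient of variation was 0.129. DESeq2 1.42.0 and limma 3.58.1 (voom) were alternatives, beside other scalings, filters, replicate blocks and libraries left out. Every satellite row was named, with its 2 nearest elements. The members and lists were chosen with earlier results of these data known. Replicates are independent per the study, and p-values measure the spread between these libraries.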

Additional observations from a re-analysis of the deposited data

Results flagged for a closer look

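RSP was singled out because its H3K23ac per H3 lay on opposite sides of the typical element in the knockdowns, with both log2 ratios below 0 in enok_KD (−0.96 and −0.83) and both above 0 in GFP_KD (0.30 and 0.67). The difference of the means was −1.38, and the edgeR test of the difference did not pass (adjusted p = 0.129). The fitted GFP_KD ratio of RSP did not itself pass (0.47, edgeR adjusted p = 0.111). Fitted ratios of the elements nearest to RSP changed sides as well, which follows from how they were chosen. They were 0.27 in GFP_KD and −0.39 in enok_KD at Invader3_LTR, and 0.58 and −0.80 at ALA_DM. This rule was applied to the satellites only, and the share of all elements that meet it was not counted.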

How the results depend on the processing

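The labels number replicates 1 and 2 in every group without saying what a number shares. Deviations of H3 and H3K23ac libraries of 1 number correlated at 0.70 in enok_KD and −0.020 in GFP_KD across elements, so pairing was not established. Satellites called in the ratio difference numbered 0, but 3 with a replicate block of library pairs (65 of all elements, 32.0%; edgeR adjusted p = 6.73e-14 at DMSAT6, 2.39e-10 at RSP and 3.01e-13 at SAR_DM), 3 with crossed numbers, which was chosen after seeing the data, and 2 with DESeq2. Satellites called in H3 numbered 1, but 0 under DESeq2 size factors, TMM without satellite rows or a mean of at least 100 counts, 2 with DESeq2 or a block of replicate number, and 3 with crossed numbers, which also called 1 in H3K23ac. Satellites called in the GFP_KD ratio numbered 2, but 4 under cluster table factors or the block of library pairs and 1 with at least 100 counts, where HSATII was not tested. Calls under cluster table factors are not made against the typical element, since those factors move its value. The block called no other count differently by over 1.5 times. With libraries left out, where a lone library is assumed to vary like the other groups, the number of satellites called moved in every comparison. Apart from the block of library pairs in the ratio difference, these counts are given without the share of all elements called under each setting. They show how the calls move with the processing and are not a result about the satellites.

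Signs turned at HETRP_DM in the GFP_KD ratio under total counts (−0.014) and in the enok_KD ratio under cluster table factors (0.55). The sign at SAR_DM in the GFP_KD ratio turned under those same factors (0.45). The cluster table factors also moved the median of all elements, to 0.80 in enok_KD and 0.93 in GFP_KD. The values of 0.55 and 0.45 thus still lay below the typical element. With libraries left out, values ranged from −0.24 to 0.077 for H3 of HETRP_DM, from −0.46 to 0.17 and −0.47 to 0.092 for H3K23ac of DMSAT6 and SAR_DM, and from −0.15 to 0.16 for the GFP_KD ratio of HETRP_DM. The satellite share in GFP_KD was 7.82% for H3 and 5.62% for H3K23ac without ROO_I, and 6.55% and 4.39% with cluster counts added. The causes were not tested. Depth limits HSATII.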
